A study of Mus musculus with 2 samples.

Results

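The cells described here are crypt epithelial cells that carried Lgr5 transcripts but almost none of the cycling cell transcripts Mki67 and Top2a. They were chosen by a rule on raw counts of unique molecular identifiers (UMIs, 1 per captured transcript): at least 5000 UMIs in the cell, at least 3 of Lgr5, at most 2 of Mki67 and Top2a together, fewer than 20 of Chga and fewer than 3 of Neurog3. The rule found 206 of 2335 cells. Since measured values of Lgr5, Mki67, Top2a, Chga and Neurog3 chose the cells, those 5 genes are description only.

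All cells came from small intestinal crypts of ChgaCreER-tdTomato, Rosa26LSL-eYFP stock, per the labels a single mouse, given 1 mg tamoxifen on each of 5 days. In this stock the promoter of the enteroendocrine gene Chga drives a tamoxifen-inducible Cre recombinase, and Cre switches on eYFP from the Rosa26 locus. Sorted eYFP+ cells and bulk epithelial cells were marked with BioLegend hashtag antibodies and captured together in 1 droplet library of 3′ transcript ends (10x Genomics). The sources used here do not say which of the 4 hashtags marked which sort. Per the labels, every group below shares the genotype, the treatment and the library, so no p-value was computed.

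In all, 5 groups were set side by side. The 206 Lgr5 cells outside mitosis held 4156980 UMIs, with a median of 17340 per cell. They were compared with 180 mitotic Lgr5 cells (at least 3 Lgr5 UMIs and at least 10 of Mki67 and Top2a), which held 7118191 UMIs and a median of 34410 per cell. Mitotic and outside mitosis are short for these limits on Mki67 and Top2a throughout. The phase of each cell was not determined, and the mitotic groups can hold cycling cells of other phases. All 2129 other cells formed the broad comparison, with a median of 19500 UMIs. Narrower comparisons were 361 non-mitotic epithelial cells with no Lgr5 UMI and 280 mitotic epithelial cells with no Lgr5 UMI, held to the same limits on depth, Chga and Neurog3. Mitochondrial UMIs had medians of 7.66% in the Lgr5 cells outside mitosis and 7.48% in the mitotic Lgr5 cells.

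Lgr5 marks the columnar stem cells at the base of the crypt, between the Paneth cells. The Lgr5 protein is a receptor for R-spondins, which keep Wnt receptors at the cell surface, and many genes of these stem cells are targets of Wnt signalling. Lgr5 stem cells are known as a dividing population, so at any time a share of them stands outside mitosis. Their progeny multiply as Lgr5-negative transit-amplifying cells and then become absorptive or secretory cells.

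Some facts of the cells stand before the results. Of the 206 cells, 53 carried hashtags 1 and 2, 41 carried hashtags 3 and 4 and 112 could not be assigned to either pair. Although the labels name 1 mouse, Xist reached 3 UMIs without any Y-linked transcript in 200 of the 206 cells, while 3 had Y-linked UMIs and at most 2 of Xist. The mitotic Lgr5 cells held 14 of 180 such Y-linked cells, and all of these in both groups lay in hashtags 1 and 2 (3 of 53 Lgr5 cells outside mitosis and 14 of 65 mitotic Lgr5 cells). The non-mitotic and mitotic cells without Lgr5 held 33 of 361 and 37 of 280. Cells with and without Y-linked transcripts were thus mixed unevenly between the groups. Restricting both groups to Xist cells left 28 genes higher and 238 lower than in mitotic Lgr5 cells, against 31 and 238 with all cells, and 236 higher and 554 lower than in non-mitotic cells without Lgr5, against 221 and 537.

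The second fact concerns 12 of the 206 cells that held at least 1% of their UMIs in a marker list of a differentiated cell type. All 12 passed on the list of 10 Paneth markers and 5 of them on the goblet list as well. Paneth markers made up 2.24% to 59.6% of the UMIs of these 12 cells, with a median of 28.5%, against 0.0174% to 0.826% (median 0.0752%) in the other 194. The 5 stem markers other than Lgr5 made up a median of 0.448% of the UMIs in the 12 cells and 1.38% in the 194. The cell with the highest Paneth share had 4 UMIs of Lgr5, 1 of Olfm4, none of Gkn3 and 827 of lysozyme (Lyz1) among 46683 UMIs. None of the 12 had a doublet score in the top 6% of all cells. Such scores fell on 1 of the 206 cells and on 22 of the 180 mitotic Lgr5 cells. Of those 22, 10 held at least 1% of UMIs in a marker list, and the others stay in the comparisons below. More than 60000 UMIs were found in 3 of the 206 cells and 25 of the 180. Stem markers other than Lgr5 made up at least 0.417% of the UMIs in each of the 194 cells. The 12 are kept apart below and called Paneth marker carriers.

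**Figure D1:**
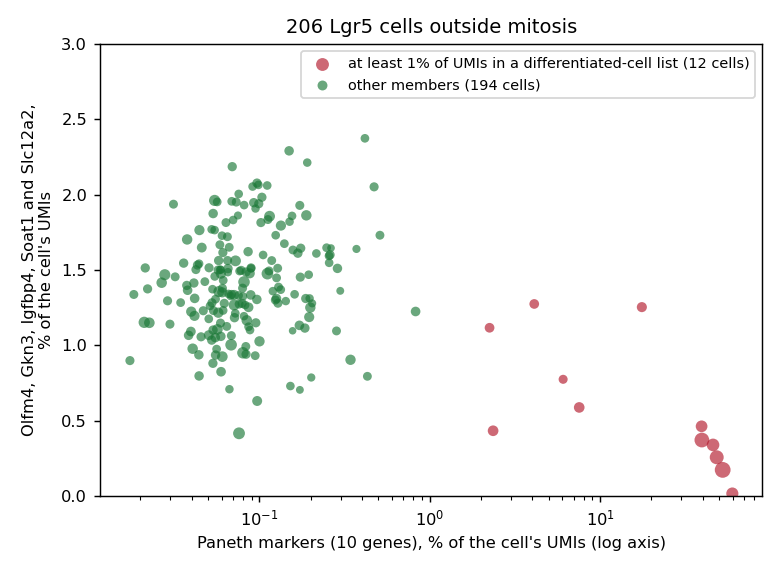
Each point is 1 of the 206 Lgr5 cells outside mitosis; the horizontal log axis gives Paneth markers and the vertical axis 5 stem markers, both as a percentage of the cell's UMIs, and larger points had more UMIs. The 12 carriers (red) lie at 2.24% or more on the Paneth axis, and the 194 others (green) at 0.826% or less.

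The 12 carriers set what stood highest. With all 206 cells, levels are given as UMIs per 1000000 UMIs of the summed cells (CPM), a gene counts as measured with at least 50 UMIs in the compared groups together, and it is called higher or lower past a 2-fold ratio (with 10 CPM added to each side) when the exact 95% Poisson intervals do not overlap. Against mitotic Lgr5 cells, 31 of 9739 genes were called higher (0.318%) and 238 lower (2.44%). The highest were Paneth products: the alpha-defensin Defa30 had 14420 CPM in Lgr5 cells outside mitosis and 1308 CPM in mitotic Lgr5 cells. Intelectin (Itln1), a sugar-binding lectin, had 2915 and 518 CPM, and colipase (Clps), a lipase cofactor, 429.9 and 61.1 CPM. Without carriers in either group (194 and 167 cells), the calls were 6 of 9500 higher (0.0632%) and 220 lower (2.32%). With the 12 carriers removed from the Lgr5 cells outside mitosis alone, they were 4 of 9671 higher (0.0414%) and 252 lower (2.61%). In these 194 cells Defa30 had 277.2 CPM, against 132.7 CPM in the 167 mitotic Lgr5 cells. Intervals cover the counting error of summed UMIs only, not the spread between cells or between animals. They are too narrow for genes that vary more between cells than counting does, such as Olfm4 (variance over mean 4.70 in the 194 cells, below).

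The values that follow leave carriers out of each group, unless stated otherwise, which leaves 194 Lgr5 cells outside mitosis (3625001 UMIs), 167 mitotic Lgr5 cells, 228 non-mitotic cells without Lgr5 and 252 mitotic cells without Lgr5. In every group, carriers are cells with at least 1% of their UMIs in the enterocyte, goblet, Paneth, enteroendocrine or tuft list. All log2 ratios carry the 10 CPM pseudocount, which understates the ratios of low genes.

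The 5 stem markers other than Lgr5 were all higher in the 194 cells than in mitotic Lgr5 cells with intervals apart. Of these, Gkn3 alone passed 2-fold. Lgr5, which the rule used, had 332.7 and 182.2 CPM. Olfm4, a secreted glycoprotein that marks crypt base cells, had 11290 CPM (11180 to 11400) in Lgr5 cells outside mitosis and 7559 CPM (7493 to 7627) in mitotic Lgr5 cells. In non-mitotic and mitotic cells without Lgr5 it had 1714 and 1840 CPM. Gkn3, a gastrokine family gene, had 348.1 CPM (329.2 to 367.9) in Lgr5 cells outside mitosis, 165.1 CPM (155.3 to 175.3) in mitotic Lgr5 cells and 30.2 and 26.3 CPM in the non-mitotic and mitotic cells without Lgr5. For both genes the Lgr5 cells outside mitosis were highest and the mitotic Lgr5 cells came next. The sterol esterifying enzyme Soat1 had 377.7 CPM in Lgr5 cells outside mitosis against 232.3 CPM in mitotic Lgr5 cells, the insulin-like growth factor binding protein Igfbp4 175.7 against 101.5 CPM, and the ion cotransporter Slc12a2 1720 against 1088 CPM. In cells without Lgr5 the same contrast, outside against in mitosis, had 0 of 5 measured markers higher and 2 lower with intervals apart. The median log2 ratio there was -0.10, and in cells with Lgr5 it was 0.71 over 6 markers, the rule gene Lgr5 included. With carriers kept, the median in cells with Lgr5 was 0.613 over the 6 and 0.585 over the 5 other than Lgr5. Over all 9662 genes of that contrast without Lgr5, 1372 were higher and 2006 lower with intervals apart, of which 111 (1.15%) and 253 (2.62%) were called past 2-fold. The difference between the contrasts was not tested. Per cell, with all 206 cells, Gkn3 had a median of 307.0 CPM (quartiles 170.5 and 489.9) and 7 cells had none, against a median of 138.8 CPM (87.4 and 214.9) and 12 cells with none among the 180 mitotic Lgr5 cells. Olfm4 had at least 1 UMI in every cell of both groups, with medians of 11140 CPM in Lgr5 cells outside mitosis and 7704 CPM in mitotic Lgr5 cells. The quartile ranges of Gkn3 overlapped between the groups, and those of Olfm4 did as well.

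Cells on either side of the mitotic limit formed a graded series. Over all cells of each class (206 with 0 to 2 Mki67 and Top2a UMIs, 92 with 3 to 9 and 180 with at least 10), Gkn3 had 320.4, 236.1 and 163.9 CPM and Olfm4 10270, 8444 and 7301 CPM. Soat1 had 347.4, 299.2 and 228.3 CPM in the same order. Axin2, a feedback inhibitor of Wnt signalling, had 217.0, 217.2 and 189.0 CPM, so it did not follow that series between the first 2 classes. Ascl2, a transcription factor of Lgr5 stem cells, had 113.5, 108.2 and 105.1 CPM, which lie close together. The median depth of the classes rose in the same order, with 17340, 25970 and 34410 UMIs per cell, and its part in the series was not tested.

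The limits of the rule cut through continuous values. The 53 cells with exactly 3 Lgr5 UMIs had 257.4 CPM of Gkn3 and 9905 CPM of Olfm4, and the 59 cells with 2 Lgr5 UMIs, just outside, had 262.1 and 8962 CPM. The 51 cells with 2 UMIs of Mki67 and Top2a had 250.6 CPM of Gkn3, and the 30 with 3 had 255.4 CPM. Of the 206 cells, 82 had no UMI of Mki67 or Top2a and 129 had none of Chga.

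The depth of the cells also differed between the groups, and levels in CPM are shares of a cell's UMIs. In UMIs per cell, with all cells, Gkn3 had medians of 5.5 in Lgr5 cells outside mitosis and 5 in mitotic Lgr5 cells, and Olfm4 195.5 and 268.5. Soat1 had 6 and 8, Igfbp4 3 and 3, Slc12a2 29 and 36 and Axin2 4 and 7. Higher thus means a higher share of a cell's UMIs here, not more UMIs per cell. More transcripts of a gene and fewer of all others cannot be told apart in these shares. The limit of 3 Lgr5 UMIs also asks for a higher share of Lgr5 in a shallower cell. The rule itself thus raises Lgr5 in CPM in the shallower cells outside mitosis. Gkn3 had 257.4 CPM in the 53 cells with exactly 3 Lgr5 UMIs and 387.3 CPM in the 25 with at least 10, and Olfm4 9905 and 11040 CPM. The part of this choice in the ratios was not tested. When both groups were held to 15000 to 40000 UMIs per cell, 131 Lgr5 cells outside mitosis (median 19040 UMIs) stood against 106 mitotic Lgr5 cells (median 28000 UMIs), carriers included. The log2 ratio of Gkn3 was then 0.97, against 0.93 over all depths. Soat1 had 0.60 against 0.59, Igfbp4 0.66 against 0.64 and Olfm4 0.38 against 0.49.

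A list of 40 reported Lgr5 stem cell signature genes, of which 37 were measured, showed the same direction in smaller steps. Against mitotic Lgr5 cells, 23 of 37 were higher and 0 lower with intervals apart, and none passed 2-fold (median log2 ratio 0.37). Over all 9500 genes measured, 718 (7.56%) were higher and 1216 (12.8%) lower with intervals apart, with a median of 0.00 (-0.004 before rounding). Against non-mitotic cells without Lgr5, 35 of 37 passed 2-fold (median 1.71), where 253 of 8976 genes did so (2.82%) and 377 were called lower (4.2%). With carriers kept, the calls over all genes were 221 of 9757 higher (2.27%) and 537 lower (5.5%). Members of this list were picked in earlier work for being high in Lgr5 cells, so the second count restates their choice.

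Among the signature genes, the ratios differed. Nrn1, a neurite outgrowth factor gene, had 70.9 CPM (62.5 to 80.1) in Lgr5 cells outside mitosis and 31.5 CPM (27.3 to 36.1) in mitotic Lgr5 cells. The growth factor gene Pdgfa had 311.2 CPM (293.3 to 329.9) and 157.7 CPM (148.1 to 167.6). The cell cycle kinase Cdk6, which acts with D cyclins in G1, had 226.8 and 147.3 CPM in the Lgr5 cells outside and in mitosis. Other members hardly differed: Clca3b, of the calcium-activated chloride channel regulator family, had 1641 and 1617 CPM, Mex3a, an RNA-binding protein gene, 21.5 and 20.7 CPM, and the ephrin receptor gene Ephb2 55.7 and 57.3 CPM, each with overlapping intervals.

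The contrast between cells with and without Lgr5 could also be taken among mitotic cells, which the rule left out. There, 19 of 37 signature genes passed 2-fold in mitotic Lgr5 cells against mitotic cells without Lgr5 (median 1.14), where 72 of 9947 genes did so (0.724%) and 50 were called lower (0.503%). The same contrast outside mitosis had a median of 1.71. The difference between these 2 contrasts was not tested. Rgmb, a BMP co-receptor gene, had log2 ratios of 2.33 outside mitosis and 1.77 in mitosis, and Rnf43, a ubiquitin ligase that removes Wnt receptors, 2.24 and 1.32.

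**Figure D2:**
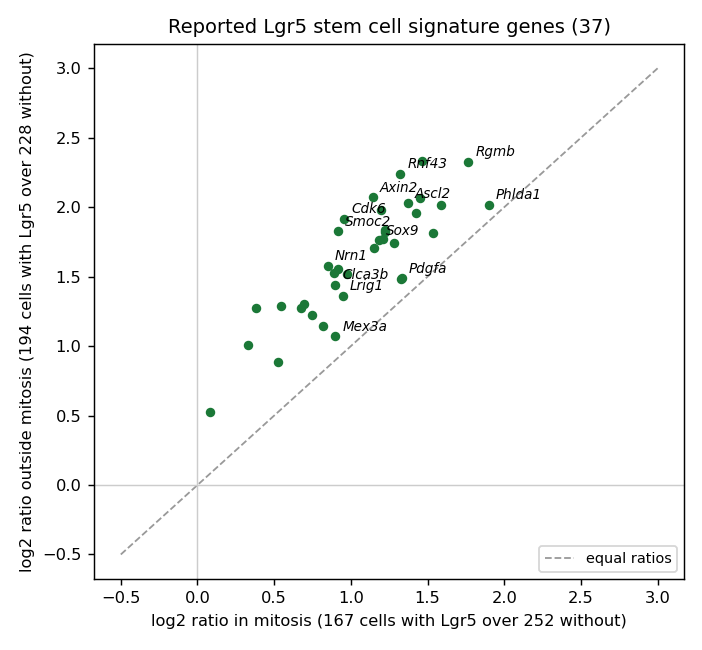
Each point is 1 of 37 signature genes; the vertical axis is the log2 ratio of cells with Lgr5 over cells without outside mitosis (194 over 228 cells), and the horizontal axis the same ratio among mitotic cells (167 over 252 cells), both with 10 CPM added. Every point lies above 0 on both axes and above the dashed line of equal ratios.

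Wnt genes are given by role. Of 16 measured targets and feedback genes, 10 were higher in Lgr5 cells outside mitosis than in mitotic Lgr5 cells and 0 lower with intervals apart, with a median log2 ratio of 0.33 and none past 2-fold, against 7.56% of all genes higher and 12.8% lower. Rnf43 had 137.7 CPM (125.8 to 150.3) in Lgr5 cells outside mitosis and 85.3 CPM (78.3 to 92.7) in mitotic Lgr5 cells. The transcription factor gene Sp5 had 80.8 and 49.0 CPM, Axin2 238.9 and 191.8 CPM, and Sox9, a transcription factor of crypt cells, 339.6 and 226.4 CPM. Ascl2 had 124.1 CPM (112.9 to 136.2) and 106.6 CPM (98.8 to 114.8), which overlap. Of 18 measured receptors and transducers, 1 was higher and 0 lower with intervals apart, with a median of 0.11, which is near the share of all genes higher. The difference between targets and receptors was not tested. The R-spondin receptor gene Lgr4 had 92.1 CPM in Lgr5 cells outside mitosis and 84.9 CPM in mitotic Lgr5 cells, beta-catenin (Ctnnb1) 245.2 and 220.8 CPM, and the Wnt receptor gene Fzd7 21.8 and 19.3 CPM.

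**Figure D3:**
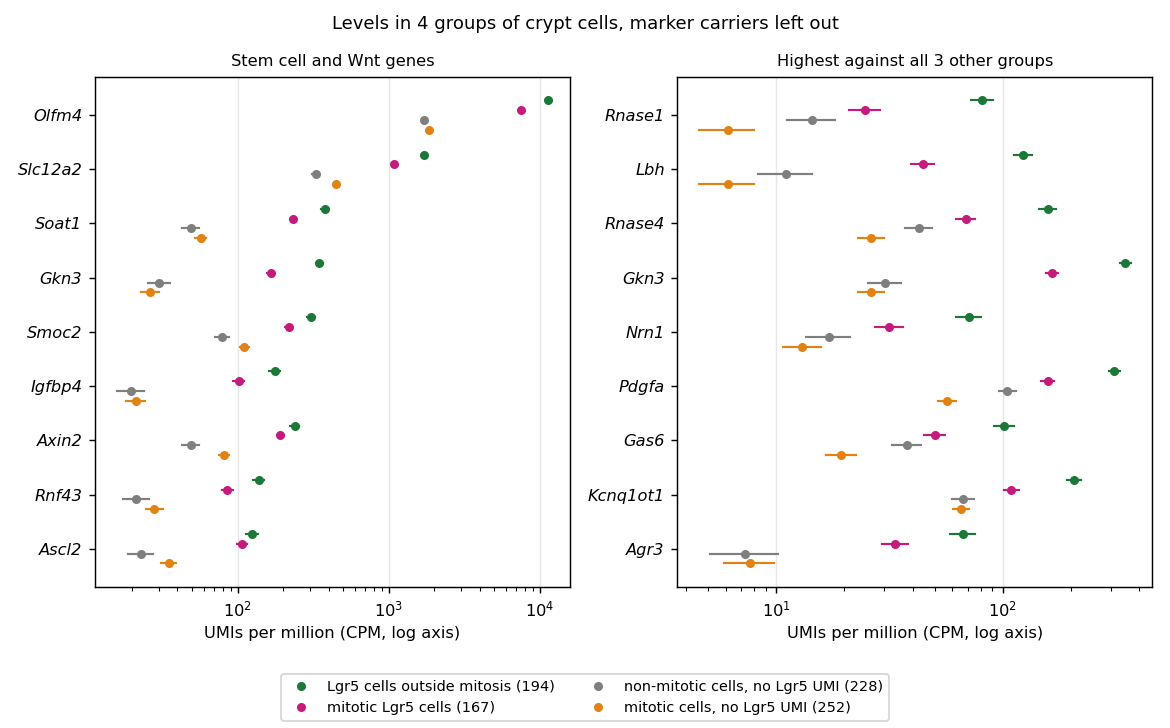
Levels in CPM (log axes, lines are exact 95% Poisson intervals) of 9 stem cell and Wnt genes at left and of 9 genes that stood highest against all 3 other groups at right, in 4 groups without carriers. Green points (Lgr5 cells outside mitosis) lie furthest right in each row, and for Ascl2 their interval overlaps that of the mitotic Lgr5 cells.

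Some genes stood above each of the other 3 groups. Of 8794 genes measured in the 4 groups, 480 were higher in Lgr5 cells outside mitosis than in each of the others with intervals apart, 55 of them past 1.5-fold and 4 past 2-fold against every group. With carriers kept, 293 of 9281 were higher with intervals apart, 23 past 1.5-fold and 1 past 2-fold. Lbh, a transcriptional cofactor gene, had 123.3 CPM (112.1 to 135.3) in Lgr5 cells outside mitosis, 44.3 CPM in mitotic Lgr5 cells, 11.04 CPM in non-mitotic cells without Lgr5 and 6.11 CPM in mitotic cells without Lgr5. Against mitotic Lgr5 cells its log2 ratio was 1.30, below that of Rnase1 (1.40) and above those of the other named genes. Between 15000 and 40000 UMIs its log2 ratio was 0.96, against 1.28 over all depths, carriers included. Gas6, a ligand of TAM receptors, had 101.5 CPM in Lgr5 cells outside mitosis and 50.04 CPM in mitotic Lgr5 cells, and Agr3, a disulfide isomerase family gene, 66.8 and 33.5 CPM.

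Rnase1, a secreted ribonuclease, had 81.1 CPM (72.1 to 90.9) in Lgr5 cells outside mitosis, 24.6 CPM (20.9 to 28.7) in mitotic Lgr5 cells, 14.4 CPM in non-mitotic cells without Lgr5 and 6.11 CPM in mitotic cells without Lgr5. With carriers it had 159.3 CPM, so it was also high in the carriers. Rnase4 had 157.8 and 68.7 CPM in Lgr5 cells outside and in mitosis; it shares its locus with the angiogenin gene Ang, so its counts are uncertain. Kcnq1ot1, a long RNA antisense to Kcnq1, had 205.8 and 109.3 CPM, and the sources do not say whether strand was used in counting. Defa30, Defa24 and AY761184, near-identical defensin family genes whose counts could be split, also ranked among the first 12 by CPM. In UMIs, however, Defa30 had 1005 over 194 Lgr5 cells outside mitosis and 859 over 167 mitotic Lgr5 cells, and it was found in 96.4% of the cells of both groups, so its counts per cell were alike and no difference in expression is read from its CPM. For other named genes the UMIs over the same cells were also near level per cell. Gkn3 had 1262 and 1069, Nrn1 257 and 204, Pdgfa 1128 and 1021 and Rnase4 572 and 445. Kcnq1ot1 had 746 and 708, Gas6 368 and 324 and Agr3 242 and 217. The ratios of all these genes are read as shares only. Further apart were Lbh (447 and 287) and Rnase1 (294 and 159). Defensins are Paneth products, and the part of free RNA in their counts was not tested. The Paneth marker list moved with these genes in the 194 cells: its summed level per cell had a median of 751.8 CPM (174.0 to 8257), against 467.9 CPM (133.2 to 4717) in mitotic Lgr5 cells and 473.2 CPM in non-mitotic cells without Lgr5. Of 7 Paneth markers measured, 5 were higher with intervals apart, against 7.56% of all genes, and their part in these results was not tested. The sixth gene past 2-fold against mitotic Lgr5 cells was the tuft marker Lrmp, with 13.8 CPM from 50 UMIs against 1.24 CPM from 8 UMIs. It was named after its values were seen. Of all 206 cells, 187 held no UMI of any tuft marker, Lrmp included, and the highest cell had 2855 CPM of that list. Lrmp thus came from few cells and is not read as a trait of the group.

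Genes of the cell cycle followed the rule. All 34 mitotic spindle and G2/M genes were lower than in mitotic Lgr5 cells past 2-fold, with a median log2 ratio of -2.92; 220 of 9500 genes were called lower in all (2.32%). Ube2c, the ubiquitin-conjugating enzyme of the anaphase-promoting complex, had 26.2 CPM in Lgr5 cells outside mitosis and 510.9 CPM in mitotic Lgr5 cells. Cenpf, a kinetochore protein gene, had 19.9 and 325.5 CPM, and Ccnb1 (cyclin B1) 0.83 and 95.4 CPM. The summed list had a median of 151.6 CPM per cell (highest 1087) in Lgr5 cells outside mitosis and 4411 CPM (lowest 316.0) in mitotic Lgr5 cells. These ratios come from the contrast that the rule made and are description.

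Genes of DNA replication were less far apart. Of 30 measured G1/S genes, 7 passed 2-fold lower and 21 were lower with intervals apart (median -0.54), against 2.32% and 12.8% of all genes. The nucleotide enzymes Tyms and Rrm2 had 40.6 and 1.93 CPM in Lgr5 cells outside mitosis, against 127.9 and 34.3 CPM in mitotic Lgr5 cells. Genes of the MCM helicase, which is loaded onto origins before replication, varied: Mcm6 had 101.0 CPM (90.9 to 111.9) in Lgr5 cells outside mitosis and 97.0 CPM (89.5 to 104.9) in mitotic Lgr5 cells, and Mcm2 48.0 and 37.4 CPM with overlapping intervals, whereas Mcm5 had 35.9 and 57.5 CPM and Mcm7 69.0 and 105.2 CPM. Per cell, the G1/S list ran to 5082 CPM (median 901.4) in the 194 cells and to 5298 CPM (median 1603) in mitotic Lgr5 cells. The 2 ranges overlapped over most of their length.

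Of 13 measured CDK inhibitors and quiescence genes, which are tied to leaving the cell cycle, 1 was higher and 5 lower than in mitotic Lgr5 cells with intervals apart, against 7.56% and 12.8% of all genes. The higher count is near the share over all genes. The higher one was Btg1, an antiproliferative gene, with 215.4 and 161.1 CPM. Cdkn1a (p21) had 14.9 CPM (11.2 to 19.4) in Lgr5 cells outside mitosis, 38.3 CPM (33.7 to 43.4) in mitotic Lgr5 cells and 95.4 CPM in non-mitotic cells without Lgr5. The log2 ratio of Cdkn1a to mitotic Lgr5 cells was 0.06 once the 6% highest doublet scores were removed from both groups, against -1.21 with all cells. Cdkn1b (p27) had 75.03 and 88.0 CPM with overlapping intervals. The G1 cyclins Ccnd1 and Ccnd2 had 145.7 and 507.9 CPM in Lgr5 cells outside mitosis, against 120.5 and 415.7 CPM in mitotic Lgr5 cells, both with intervals apart. The cyclin E genes went the other way, with 2.21 CPM of Ccne1 and 3.03 CPM of Ccne2, against 9.27 CPM each in mitotic Lgr5 cells.

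Of 6 measured genes reported for reserve stem cells, none differed from mitotic Lgr5 cells with intervals apart, where 7.56% of all genes were higher and 12.8% lower. Hopx, a homeodomain cofactor gene, had 146.8 CPM (134.6 to 159.8) in Lgr5 cells outside mitosis and 128.2 CPM (119.6 to 137.2) in mitotic Lgr5 cells, and Bmi1, a Polycomb gene, 19.0 and 15.6 CPM. Of 13 fetal-like and regeneration genes listed, 12 were in the table and 1 reached the count limit. That gene, Cyr61, which encodes a matrix protein, was higher in Lgr5 cells outside mitosis with intervals apart but not past 2-fold, with 59.3 CPM (51.7 to 67.8) and 45.3 CPM (40.2 to 50.7). Ly6a, the marker of regenerating epithelium, had 0.55 and 0.77 CPM.

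Genes of sterol synthesis and uptake were low in Lgr5 cells outside mitosis. These cover the mevalonate pathway, later cholesterol enzymes, sterol uptake and their regulators; SREBP transcription factors are known to drive them together when sterol is scarce. The list of 25 was drawn up after sterol genes were seen among the lowest, so its counts describe and do not test. Among 24 measured, 4 passed 2-fold lower, 15 were lower and 0 higher than in mitotic Lgr5 cells with intervals apart, with a median log2 ratio of -0.47, against 1216 of 9500 genes lower (12.8%). Against non-mitotic cells without Lgr5, 7 of 23 passed 2-fold lower and 20 were lower with intervals apart (median -0.84), against 1785 of 8976 genes (19.9%). Low sterol genes were not particular to cells outside mitosis. In mitotic Lgr5 cells, 23 of 25 were lower than in mitotic cells without Lgr5 with intervals apart (median -0.60), against 1577 of 9947 genes. None of the 25 passed 2-fold there, so 0 were called lower.

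Hmgcs1, which makes the precursor of mevalonate, had 30.9 CPM (25.4 to 37.2) in Lgr5 cells outside mitosis, 78.5 CPM (71.8 to 85.6) in mitotic Lgr5 cells, 81.9 CPM in non-mitotic cells without Lgr5 and 133.7 CPM in mitotic cells without Lgr5. Msmo1, a sterol demethylation enzyme, had 8.0 CPM (5.36 to 11.5) in Lgr5 cells outside mitosis, 30.7 CPM (26.6 to 35.3) in mitotic Lgr5 cells and 42.5 and 63.1 CPM in non-mitotic and mitotic cells without Lgr5. Insig1, the membrane protein that holds SREBP back, had 9.10, 27.6, 44.4 and 56.3 CPM in the same 4 groups. The lowest level was in Lgr5 cells outside mitosis for each of these genes. Sqle, the squalene epoxidase gene, had 9.93 CPM in Lgr5 cells outside mitosis and 28.4 CPM in mitotic Lgr5 cells. Mvd, a mevalonate enzyme gene, hardly differed, with 9.93 and 10.5 CPM.

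**Figure D4:**
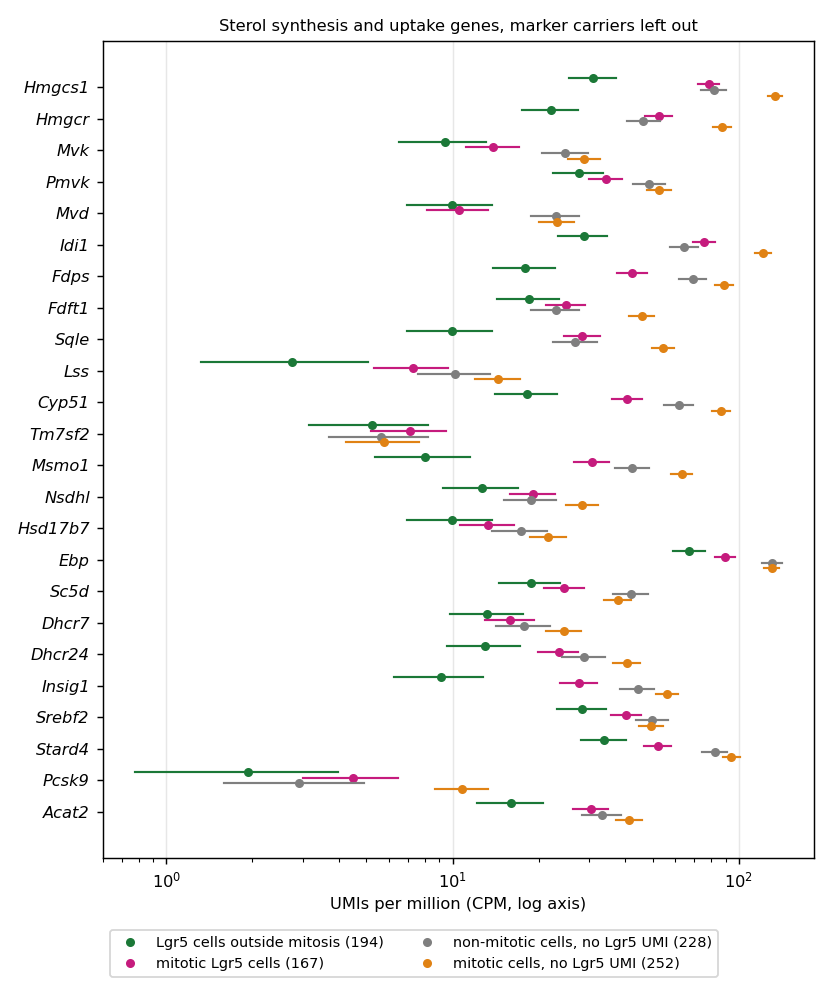
Levels in CPM (log axis, lines are exact 95% Poisson intervals) of 24 sterol synthesis and uptake genes in 4 groups without carriers. Green points (Lgr5 cells outside mitosis) are lowest in each of the 24 rows, although some intervals overlap, and orange points (mitotic cells without Lgr5) are mostly highest.

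Per cell, the summed sterol list had a median of 390.7 CPM in the 194 Lgr5 cells outside mitosis (quartiles 293.2 and 512.7), 769.0 CPM in mitotic Lgr5 cells (573.1 and 1015), 900.7 CPM in non-mitotic cells without Lgr5 and 1243 CPM in mitotic cells without Lgr5. The upper quartile of the Lgr5 cells outside mitosis lay below the lower quartile of the mitotic Lgr5 cells. The direction recurred in each hashtag class, carriers included: Hmgcs1 had 32.0 CPM in Lgr5 cells outside mitosis and 104.5 CPM in mitotic Lgr5 cells in hashtags 1 and 2, 22.2 and 62.9 CPM in hashtags 3 and 4, and 30.6 and 62.0 CPM in cells of neither pair. Between 15000 and 40000 UMIs the log2 ratio of Hmgcs1 was -1.04 and that of Msmo1 -1.19. A list of fatty acid synthesis genes, also drawn up after values were seen, was mixed, with 4 of 11 lower and 0 higher with intervals apart (median -0.01).

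Promoters are shown for genes of these contrasts, with every match to the CCAAT box, the element bound by NF-Y, in capitals on either strand (letters CCAAT or ATTGG). Only genes with a match were picked for display, so a match in each window shown is no result. Among stem markers, 2 of 4 with a listed promoter had a match (Olfm4 and Soat1). NF-Y is known to act at promoters of both mitotic and sterol genes. Sequences are the 250 bases before the RefSeq start in GRCm38.p6, read 5′ to 3′ on the gene's strand. Ube2c lies at chr2:164769679-164769928 (plus strand), Cenpf at chr1:189688087-189688336 (minus strand), Msmo1 at chr8:64733579-64733828 (minus strand), Hmgcs1 at chr13:119690101-119690350 (plus strand) and, for a stem marker, Olfm4 at chr14:80000052-80000301 (plus strand).
Ube2c: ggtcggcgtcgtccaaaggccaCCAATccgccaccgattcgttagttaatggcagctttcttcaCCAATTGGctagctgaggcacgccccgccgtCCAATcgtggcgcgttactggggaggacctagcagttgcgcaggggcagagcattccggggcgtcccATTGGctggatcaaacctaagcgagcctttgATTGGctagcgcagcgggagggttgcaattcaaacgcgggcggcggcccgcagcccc
Cenpf: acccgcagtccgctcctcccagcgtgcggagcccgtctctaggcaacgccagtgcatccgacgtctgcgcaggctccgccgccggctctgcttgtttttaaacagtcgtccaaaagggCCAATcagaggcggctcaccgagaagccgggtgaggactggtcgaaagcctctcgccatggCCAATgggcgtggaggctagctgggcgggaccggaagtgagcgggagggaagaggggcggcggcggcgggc
Msmo1: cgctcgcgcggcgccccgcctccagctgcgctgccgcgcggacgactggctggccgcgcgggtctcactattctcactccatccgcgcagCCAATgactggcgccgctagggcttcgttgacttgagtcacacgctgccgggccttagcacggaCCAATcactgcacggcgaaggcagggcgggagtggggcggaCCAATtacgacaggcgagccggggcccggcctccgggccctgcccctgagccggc
Hmgcs1: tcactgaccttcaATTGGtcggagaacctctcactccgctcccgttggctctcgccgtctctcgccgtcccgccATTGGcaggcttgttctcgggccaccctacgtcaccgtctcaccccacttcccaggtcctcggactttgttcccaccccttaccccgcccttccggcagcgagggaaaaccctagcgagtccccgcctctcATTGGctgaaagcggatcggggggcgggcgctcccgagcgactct
Olfm4: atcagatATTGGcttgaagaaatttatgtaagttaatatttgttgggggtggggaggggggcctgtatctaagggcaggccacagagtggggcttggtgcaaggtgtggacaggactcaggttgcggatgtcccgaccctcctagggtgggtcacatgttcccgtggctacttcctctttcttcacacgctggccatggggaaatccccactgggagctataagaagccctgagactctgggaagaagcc

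The Ube2c window held 6 matches, an overlapping pair on opposite strands included. The Msmo1 and Hmgcs1 windows held 3 each, the Cenpf window 2 and the Olfm4 window 1. A gene counted as holding a motif if any of its listed promoters did. Of 17 sterol genes with a listed promoter, 16 held the CCAAT motif (94.1%), as did 22 of 30 mitotic genes (73.3%). It was held by 7 of 26 stem signature genes (26.9%), against 10133 of all 27025 genes with a listed promoter (37.5%). The cell cycle homology region (TTTGAA, either strand) was in 8 of 30 mitotic genes (26.7%) and 18.3% of all genes with a listed promoter. A TCF/LEF motif (CTTTGAA or CTTTGAT, either strand, of which CTTTGAA contains TTTGAA) was in 5 of 26 signature genes (19.2%) and 8.63% of all. A match describes the letters and shows no binding.

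Energy genes were compared with both groups. Of 26 oxidative phosphorylation genes, 14 were lower than in mitotic Lgr5 cells with intervals apart (median -0.15), against 12.8% of all genes. All 26 were lower than in non-mitotic cells without Lgr5 (median -0.77), against 19.9% of all genes. All 26 were also lower in mitotic Lgr5 cells than in mitotic cells without Lgr5 (median -0.37), against 1577 of 9947 genes. The difference between these contrasts was not tested. Cyc1, the cytochrome c1 subunit, had 283.3 CPM in Lgr5 cells outside mitosis, 411.9 CPM in mitotic Lgr5 cells and 805.6 CPM in non-mitotic cells without Lgr5. Cox4i1, a cytochrome oxidase subunit, had 1875, 1854 and 2685 CPM in these 3 groups. Of 14 measured glycolysis genes, 6 passed 2-fold lower than in non-mitotic cells without Lgr5 (4.2% of all genes did), among them lactate dehydrogenase Ldha with 273.9 and 1226 CPM.

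Cytosolic ribosomal protein genes differed in the other direction. Of 44, 41 were higher than in mitotic Lgr5 cells and 0 lower with intervals apart, by small steps (median 0.13), against 7.56% and 12.8% of all genes. Against non-mitotic cells without Lgr5, 43 were higher (median 0.34), against 22.0% of all genes. In mitotic Lgr5 cells, 40 were higher than in mitotic cells without Lgr5 (median 0.14), against 1350 of 9947 genes. The summed ribosomal protein genes had a median of 193600 CPM per cell in Lgr5 cells outside mitosis. It was 172500 CPM in mitotic Lgr5 cells and 160400 CPM in non-mitotic cells without Lgr5. Ribosome biogenesis genes did not follow: 1 of 18 was higher and 8 lower than in mitotic Lgr5 cells, against 7.56% and 12.8% of all genes.

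**Figure D5:**
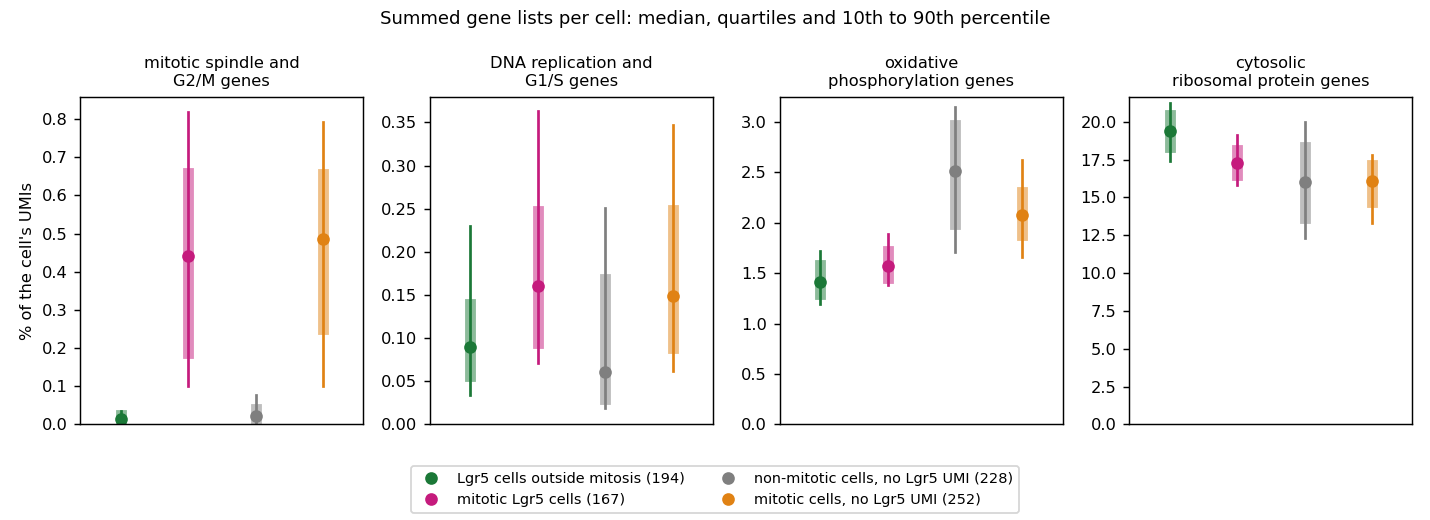
Summed levels of 4 gene lists as a percentage of each cell's UMIs in 4 groups without carriers; points are medians over cells, thick lines quartiles and thin lines the 10th to 90th percentile. Lgr5 cells outside mitosis (green) have the lowest oxidative phosphorylation median and the highest ribosomal protein median.

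Other pathways of the crypt were compared with mitotic Lgr5 cells, where 7.56% of all genes were higher and 12.8% lower with intervals apart. Among them, 0 of 12 measured Notch genes were higher and 2 lower, namely the feedback genes Nrarp (9.10 and 22.9 CPM) and Lfng (6.35 and 13.4 CPM), of which the second encodes a modifier of Notch receptors. Of 13 BMP genes 3 were higher and 0 lower, and of 11 EGF family genes none differed. Of 12 immediate early genes, which tissue dissociation can raise, 2 were higher and 1 lower, and of 9 heat shock genes 2 were higher and 3 lower.

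Enterocyte markers were lower in Lgr5 cells outside mitosis than in non-mitotic cells without Lgr5. Of 10 enterocyte markers, 9 passed 2-fold lower, as did 377 of 8976 genes in all (4.2%). None of 6 goblet markers passed 2-fold, with 1 higher and 1 lower with intervals apart, and none of 8 enteroendocrine markers differed with intervals apart. Since carriers are defined by these same lists, their removal took 133 of the 361 compared cells and limited those counts in advance. With carriers kept, all 9 goblet markers and 12 of 14 enteroendocrine markers outside the rule passed 2-fold lower, against 5.5% of all genes. All 11 enterocyte markers did so as well. Without carriers, 5 of 6 Paneth markers were higher with intervals apart and none passed 2-fold. With carriers kept, 4 of 10 were higher and 4 lower with intervals apart. Fabp1, the fatty acid binding protein of absorptive cells, had 16.8 CPM in Lgr5 cells outside mitosis, 26.3 CPM in mitotic Lgr5 cells and 670.0 CPM in non-mitotic cells without Lgr5. Sis (sucrase-isomaltase) had 2.48 CPM, against 224.6 CPM in non-mitotic cells without Lgr5. Dmbt1, a secreted scavenger receptor gene, ranked first among genes lower than in all 3 groups, by the log2 ratio nearest to 0 (-1.48). Other genes were lower against single groups, such as Birc5 with -3.95 against mitotic Lgr5 cells. Dmbt1 had 157.5 CPM in Lgr5 cells outside mitosis and 458.3 CPM in mitotic Lgr5 cells. In non-mitotic and mitotic cells without Lgr5 it had 2092 and 1979 CPM. No T cell or stromal marker reached 50 UMIs in the 2 Lgr5 groups together. MHC class II genes, which intestinal stem cells are known to express, were higher than in non-mitotic cells without Lgr5 in 6 of 7 with intervals apart, against 1977 of 8976 genes in all (22.0%), and H2-Eb1 had 291.0, 253.0 and 100.8 CPM in Lgr5 cells outside mitosis, mitotic Lgr5 cells and non-mitotic cells without Lgr5.

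Against all 2129 other cells, carriers included, 52 of 12353 genes were called higher (0.421%) and 405 lower (3.28%). Without carriers, 36 were higher (0.315%) and 244 lower (2.14%), led upward by Lbh (123.3 and 28.4 CPM), Gkn3 (348.1 and 96.2 CPM) and Sorbs2, a cytoskeletal adaptor gene (133.2 and 38.6 CPM). Enteroendocrine genes led the lower ones with carriers included, such as Chgb with 153.5 and 7042 CPM. In this comparison and that with mitotic Lgr5 cells, Chga and Neurog3 are limited in the Lgr5 cells outside mitosis alone. When the compared mitotic Lgr5 cells were held to the same limits, the log2 ratio of Chgb to them was 0.57.

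The 194 cells also varied among themselves. After each cell was thinned to 5000 UMIs, the variance over the mean across cells was computed for 2339 genes with a mean of at least 0.3 UMIs, and its median was 1.05. The antimicrobial lectin genes Reg3b and Reg3g had 54.5 and 26.1, and Reg3b was found in 27.3% of cells with up to 114 UMIs in one. The granin gene Chgb had 10.8, the nuclear RNA Malat1 5.79, Olfm4 4.70 and Cd74 2.45. Lgr5 had 1.16 and Axin2 0.89, close to the median.

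Reg3b also differed by hashtag. In Lgr5 cells outside mitosis, carriers included, it had 151.8 CPM in hashtags 1 and 2, 570.4 CPM in hashtags 3 and 4 and 458.1 CPM in cells of neither pair. In mitotic Lgr5 cells it had 458.9, 1180 and 131.0 CPM, so the direction of the contrast differed between classes. The heat shock gene Hspa1a had 81.4, 17.3 and 32.1 CPM in Lgr5 cells outside mitosis of the same classes; the part of these differences in other results was not tested. Stem genes were closer: Olfm4 had 9960, 9522 and 10820 CPM and Soat1 319.2, 330.5 and 371.2 CPM. Olfm4 in mitotic Lgr5 cells had 7171, 6835 and 7967 CPM, below the Lgr5 cells outside mitosis in each class.

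The reporter was present in some of these cells. Transcripts of YFP, at 3 UMIs or more, occurred in 21 of 206 Lgr5 cells outside mitosis (10.2%, exact Clopper-Pearson 95% interval 6.42% to 15.2%) and in 27 of 180 mitotic Lgr5 cells (15%, 10.1% to 21.1%), intervals that overlap. With each cell thinned to 5000 UMIs, at least 1 YFP UMI was left in 22 of 206 Lgr5 cells outside mitosis (10.7%) and 20 of 180 mitotic Lgr5 cells (11.1%). Of the 21, 20 carried hashtags 1 and 2, out of 53 such cells (37.7%), and 0 of 41 cells of hashtags 3 and 4 had them, which allows a share of up to 8.60%. Chga was at 0 UMIs in 14 of the 21, with 3 as the highest count. The 21 cells had 292.2 CPM of Lgr5 (244.1 to 347.0), against 304.7 CPM (286.6 to 323.7) in the 173 Lgr5 cells outside mitosis without a YFP UMI, and 10950 against 10170 CPM of Olfm4.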

How the data were processed

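One gene expression library and 1 hashtag library were analysed. Per the labels, the 10x Genomics 3′ kit was used; the submitters' processing notes name Cell Ranger and Seurat with no version, and version 3.1.0 of the counting software stands in the header of the matrix. The notes name the human build GRCh38 although the gene identifiers are mouse, so no coordinates come from the files. The deposited tables hold raw counts of UMIs per gene and cell, and raw antibody counts per hashtag and cell; the authors kept 2335 of 11248 barcodes by a filter not given in the sources used here.

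UMIs were summed per group and given as CPM with exact 95% Poisson intervals, and shares with exact Clopper-Pearson intervals. Ratios are log2 with 10 CPM added. A gene with at least 50 UMIs in both groups together was called past 2-fold with intervals apart. With 1 library and cells as members, no test and no p-value was computed. Named genes were the 12 highest and 12 lowest ratios past 2-fold with at least 100 UMIs and a UMI in 10% of cells of the higher group, without rule genes, mitochondrial genes, unnamed models or more than 3 of a family; in the 4-group layout, the 12 with the largest smallest-of-3 ratio each way. List members could also be named. A cell belonged to a hashtag pair at 3 times the counts of the other pair. Scrublet scores came from scanpy 1.11.5 with an expected rate of 6%. Suspected doublets stayed in unless stated. The calls were run on simulated counts drawn from the Poisson model that the intervals also assume. Spread between cells was not simulated, so that run cannot show how the calls behave with it. Promoters came from RefSeq (GRCm38.p6). Some genes are counted in lists but not reported singly here. Python 3.11.15, numpy 2.4.6, pandas 2.3.3, scipy 1.17.1 and matplotlib 3.10.9 were used. The members and gene lists were chosen with earlier results of these data known. The 2 lipid lists, the limit of 15000 to 40000 UMIs, the removal of carriers among members alone, and limits on Chga and Neurog3 in the compared cells were chosen after seeing the data.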

Additional observations from a re-analysis of the deposited data

Results flagged for a closer look

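Outside the 2335 cells that the authors kept, 50 further barcodes met the same rule, which makes 256 of 11248 in all. They had a median of 13900 UMIs and of 14.1% mitochondrial UMIs, and 30 of them lay above 12.5%, the highest mitochondrial percentage among kept cells. They entered no comparison.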

How the results depend on the processing

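No paired analysis was possible because 1 library holds every cell and no replicate exists, so no replicate could be left out either. Of 124 counts recomputed under alternatives, 97 stayed within 1.5 times the reported count. The size of the pseudocount and of the fold decide how many genes are called. With 1 CPM added, calls higher and lower were 56 and 423 against mitotic Lgr5 cells, 194 and 1339 against all other cells, and 680 and 953 against non-mitotic cells without Lgr5. With 50 CPM they were 20 and 70, 17 and 100, and 45 and 174. Past 1.5-fold they were 75 and 521, 222 and 1036, and 908 and 1263. Thinning to 5000 UMIs left 150 genes lower than in mitotic Lgr5 cells. Genes higher than in mitotic Lgr5 cells numbered 17 with at least 5 Lgr5 UMIs, 2 with at least 150 CPM of Lgr5, 6 without carriers in both groups and 4 without carriers among Lgr5 cells outside mitosis alone. Without carriers in both groups 244 were lower than in all other cells, and in hashtags 1 and 2 alone 114 were higher than in non-mitotic cells without Lgr5. The rule held 122 cells with at least 5 Lgr5 UMIs and 82 with no Mki67 or Top2a UMI. Cells with Y-linked UMIs alone were not compared, since 3 were in the rule.

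Signs of single genes changed mainly with the carriers. With carriers removed among Lgr5 cells outside mitosis alone, log2 ratios to mitotic Lgr5 cells were Defa30 -2.198, Defa29 -2.269, Ccl6 -0.616, Defa24 -2.789, Clps -2.027, Itln1 -2.736, AY761184 -3.170, Mptx2 -1.886, Mmp7 -2.445 and Nupr1 -0.096, and to all other cells Defa30 -3.930, Defa24 -3.988, Defa36 -3.680, Itln1 -3.716 and Clps -3.281. With at least 150 CPM of Lgr5 they were Defa30 -1.426, Defa29 -1.769, Ccl6 -0.308, Defa24 -1.431, Clps -1.211, Itln1 -0.537, AY761184 -1.911, Mptx2 -0.827, Mmp7 -0.760 and Nupr1 -0.088, and Defa30 -2.854, Defa24 -2.735, Defa36 -2.673, Itln1 -2.311 and Clps -2.479. Without carriers in both groups, Ccl6 had -0.089 and Mmp7 -0.054 against mitotic Lgr5 cells. Against all other cells Gip 0.054, Cck 0.180, Zg16 0.111, Tac1 0.110, Afp 0.073, Ghrl 0.196 and Gcg 0.020 were found, and against non-mitotic cells without Lgr5 Cck 0.131, Gcg 0.011 and Ghrl 0.234. These follow from which cells were removed. In hashtags 3 and 4 alone, Gip had 0.123 against mitotic Lgr5 cells, 0.267 against all other cells and 0.404 against non-mitotic cells without Lgr5, Gcg 0.097 against all other cells, and Zg16 and Clca1 0.546 and 0.741 against non-mitotic cells without Lgr5; the cause was not tested. Against mitotic Lgr5 cells, Cdkn1a had 0.063 without the 6% highest doublet scores, and Chgb 0.566 when the compared cells were held to the limits on Chga and Neurog3. Depth limits low genes, and genes under 50 UMIs in a comparison were not called.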
